A study of Mus musculus with 13 samples.

Results

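Glycolysis carries glucose to pyruvate and lactate, and 10 of its enzymes are described here from bulk RNA-Seq of whole parametrial white adipose tissue (pmWAT). They were chosen by gene symbol, from hexokinase to lactate dehydrogenase, as *Hk2*, *Pfkl*, *Pfkp*, *Aldoa*, *Tpi1*, *Pgk1*, *Pgam1*, *Eno1*, *Pkm* and *Ldha*. Each symbol matched 1 Ensembl identifier among the 33618 deposited, and all 10 were among the 16753 that passed a filter on low counts. The libraries came from 13 female mice, with 1 library per mouse. The 7 controls carried floxed *Lmna* alleles without Cre (*Lmna fl/fl*), and the other 6 (*Lmna* iADKO) also carried a tamoxifen-inducible Cre driven by the adiponectin promoter, so that Cre and the deletion are not separated by these groups. All 13 mice received tamoxifen intraperitoneally at 50 mg/kg on 5 consecutive days at 12 to 14 weeks of age, and their pmWAT was collected 2 weeks posttamoxifen. The labels give a single batch date for all of them.

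Glycolysis first spends ATP to phosphorylate glucose and fructose 6-phosphate, then splits the 6-carbon sugar into trioses and recovers ATP as these become pyruvate. Hexokinase, phosphofructokinase and pyruvate kinase catalyze its regulated, nearly irreversible steps, and several steps have more than 1 isozyme, each with its own tissue pattern. In adipocytes, glucose enters largely through the insulin-responsive transporter GLUT4, and glycolysis supplies carbon for fatty acids, the glycerol backbone of triglycerides, and lactate.

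Between 19147428 and 19776491 reads were counted per fl/fl mouse (median 19533703, n = 7), and between 18854223 and 19569221 per iADKO mouse (median 19494365, n = 6). Levels are counts-per-million values after TMM normalization (CPM). The targeted gene was not lower where the label says iADKO. In fl/fl mice 1 through 7, *Lmna* CPM were 98.5, 83.5, 89.4, 83.3, 74.7, 80.1 and 83.5, and in iADKO mice 1 through 6 they were 89.0, 109, 109, 100.3, 93.3 and 80.1. The ranges overlap, and the log2 fold change was 0.19 (edgeR, adjusted p = 0.0785). Counts are for whole genes, so the floxed exons could not be read apart. The adiponectin promoter drives Cre in adipocytes, so whole-tissue *Lmna* also holds RNA of cells without Cre. For these reasons *Lmna* does not check the labels here, and every direction below rests on the labels: "iADKO" stands for the libraries labelled iADKO.

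A pair of libraries stood apart. Fl/fl mouse 5 was the lowest of the 7 fl/fl mice in 10 of the 10 enzymes, and iADKO mouse 6 was the highest of the 6 iADKO mice in 6 of them. On the low side of that group, iADKO mouse 1 was the lowest in 7. Summed over 7 adipocyte markers, fl/fl mouse 5 had 10846 CPM, against 14613 to 20250 in the other fl/fl mice, and iADKO mouse 6 had 12562 CPM, against 7122 to 9348 in the other iADKO mice. Results are therefore also given without fl/fl mouse 5, and without iADKO mouse 6 where that changed a call.

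Most of the enzymes were lower in iADKO pmWAT. At an adjusted p under 0.05, 7 of the 10 were lower (*Hk2*, *Pfkl*, *Aldoa*, *Pgam1*, *Eno1*, *Pkm* and *Ldha*), where 16.3% of all tested genes were, and 0 were higher, where 14.1% of all tested genes were. At an unadjusted p under 0.05, edgeR gave 8 lower, against 21.2% of all genes, and 0 higher, against 21.4%, and both DESeq2 and limma gave 0 higher after adjustment. The median log2 fold change of the 10 enzymes was -0.46, against 0.03 over all genes tested. In each of the 7 genes called lower, and in *Pgk1*, which was not called, 6 of 6 iADKO mice lay below the fl/fl median. For the 7 this follows largely from their being called, and the share over all genes was not computed. The groups nevertheless overlapped in all 10 enzymes, where 3.93% of all tested genes were lower and 2.71% were higher without overlap. Without fl/fl mouse 5, the groups separated in 7 enzymes, all lower in iADKO, and 9 enzymes passed the threshold as lower, where 10.1% and 19.7% of all genes did. This mouse was left out because it was lowest in these enzymes and was the one fl/fl mouse below the iADKO maximum in those 7. The separation therefore follows from the choice, and it and the calls without this mouse are given as a description only. The log2 fold changes without this mouse were -0.62 for *Pfkl*, -0.94 for *Aldoa*, -0.34 for *Pgam1*, -0.63 for *Eno1*, -0.44 for *Pkm* and -0.79 for *Ldha*, with a median over the 10 enzymes of -0.53. The calls over all 13 mice did not all hold under other fits. With library totals in place of TMM 5 of the 10 were called lower, against 7.62% of all genes. The library names carry numbers that fall into 5 ranges, and with range as a block in edgeR 0 of the 10 were called lower, against 0.0836% of all genes, with adjusted p from 0.0823 to 0.893 and a median log2 fold change of -0.33. In that fit 4 of the 10 were lower with an unadjusted p under 0.05, against 12.8% of all genes. In bulk tissue, fewer adipocytes and less RNA per adipocyte cannot be told apart.

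**Figure D1:**
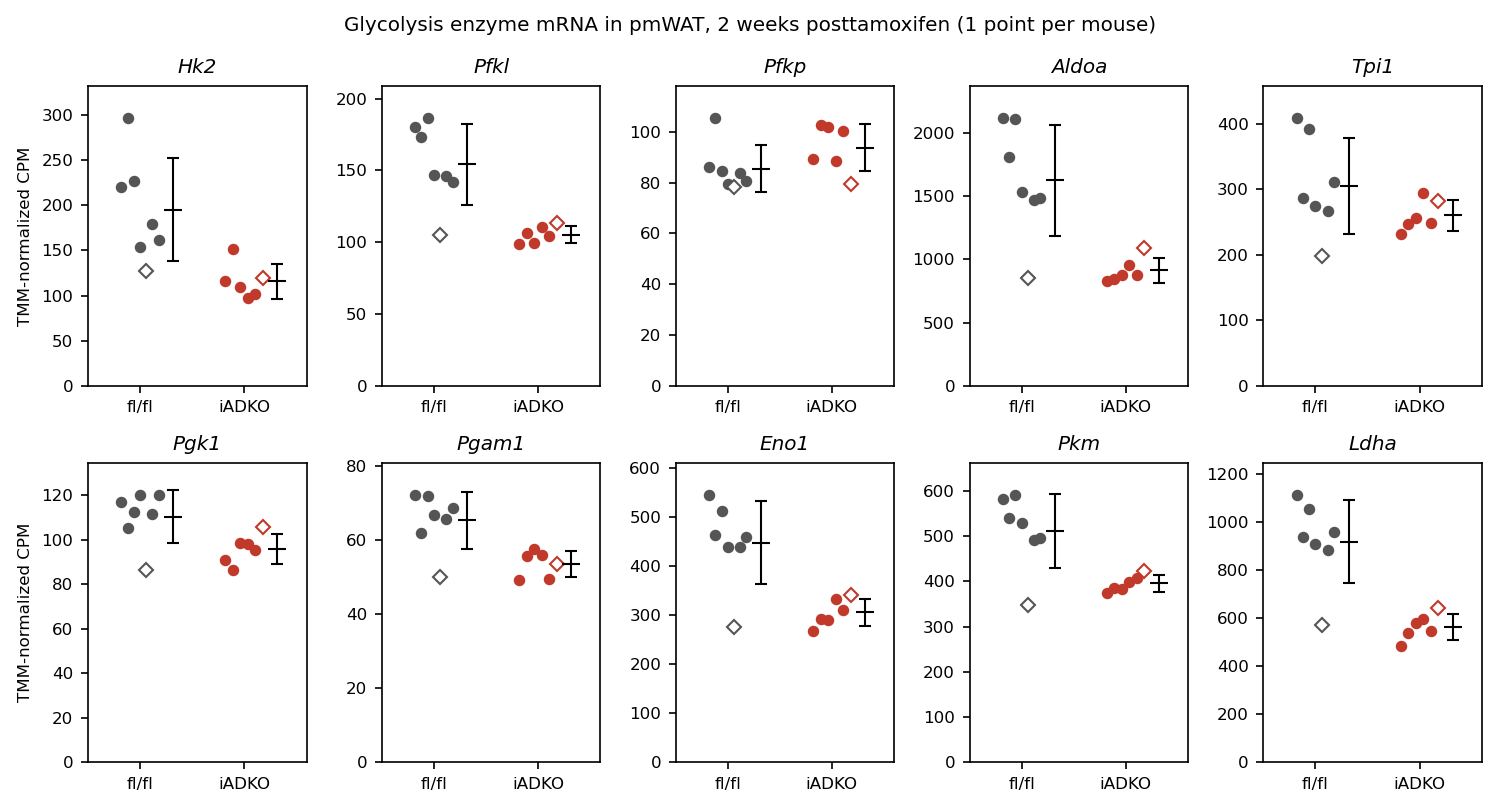
TMM-normalized CPM of the 10 glycolysis enzymes in pmWAT, with 1 point per mouse for fl/fl (gray, n = 7) and iADKO (red, n = 6) and with bars giving the mean ± SD. The open diamonds are fl/fl mouse 5, lowest of its group in every panel, and iADKO mouse 6. Axes start at 0.

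Hexokinase traps glucose in the cell as glucose 6-phosphate, and hexokinase 2 is its insulin-responsive form in fat and muscle. *Hk2* (ENSMUSG00000000628; chromosome 6 of GRCm39, 82699740 to 82751469) ranged from 127 to 296.5 CPM in fl/fl mice with a median of 179, and from 97.8 to 152 CPM in iADKO mice with a median of 113. Fl/fl mice 1, 2 and 3 were high, and iADKO mouse 2 was the one iADKO mouse above the lowest fl/fl mouse. Fl/fl mice 1, 2 and 3 and iADKO mouse 2 are the libraries numbered 747 to 750. Mean *Hk2* was 195 ± 57.2 CPM in the 7 fl/fl mice and 116 ± 19.3 CPM in the 6 iADKO mice (±SD), for a log2 fold change of -0.75 with a standard error of 0.18 (edgeR adjusted p = 0.00708). Without fl/fl mouse 5 it was -0.83 and the groups no longer overlapped. With library number range as a block it was -0.51 and did not pass (edgeR adjusted p = 0.0823).

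Phosphofructokinase commits the sugar to glycolysis, and its tetramers are built from liver (*Pfkl*), muscle (*Pfkm*) and platelet (*Pfkp*) type subunits. *Pfkl* (ENSMUSG00000020277; chromosome 10, 77818084 to 77845922) was between 105 and 186 CPM in fl/fl mice (median 147) and between 98.6 and 113 CPM in iADKO mice (median 105). Only fl/fl mouse 5 fell within the iADKO range. The log2 fold change was -0.55 (standard error 0.11, edgeR adjusted p = 0.00251). *Pfkp* (ENSMUSG00000021196; chromosome 13, 6629798 to 6698970) was between 78.1 and 105 CPM in fl/fl mice (median 83.8) and between 79.6 and 103 CPM in iADKO mice (median 94.9). It was the one enzyme of the 10 with a positive estimate, 5 of 6 iADKO mice lay above the fl/fl median, and fl/fl mouse 2 was the highest of all. The log2 fold change of 0.13 (standard error 0.078) did not pass the threshold (edgeR adjusted p = 0.207). Without fl/fl mouse 2 it was 0.19 and passed (edgeR adjusted p = 0.0443), over a range of 0.00356 to 0.526 across the alternatives. That call is a description only, since the mouse left out was the highest in *Pfkp*.

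Aldolase splits fructose 1,6-bisphosphate into 2 trioses, and triosephosphate isomerase interconverts them. *Aldoa* (ENSMUSG00000030695; chromosome 7, 126393822 to 126399923) spanned 848 to 2113 CPM in fl/fl mice, around a median of 1532, and 826 to 1092 CPM in iADKO mice, around a median of 877. Among the iADKO mice lay fl/fl mouse 5, and the lowest of the other fl/fl mice was at 1467 CPM, above every iADKO mouse. With a mean of 1623 ± 440.4 CPM over 7 fl/fl mice and 911 ± 98.5 CPM over 6 iADKO mice (±SD), *Aldoa* had the lowest log2 fold change of the 10 enzymes, -0.83 (standard error 0.17, edgeR adjusted p = 0.00327). *Tpi1* (ENSMUSG00000023456; chromosome 6, 124787549 to 124791273) spanned 198 to 408 CPM in fl/fl and 232 to 294 CPM in iADKO mice, with medians of 286 and 252. Fl/fl mice 1 and 3 were high, and 4 of the 7 fl/fl mice lay below the highest iADKO mouse. Its log2 fold change was -0.23 (edgeR adjusted p = 0.223). Without fl/fl mouse 5 it was -0.31 and passed the threshold (edgeR adjusted p = 0.0393), over a range of 0.0393 to 0.905 across the alternatives. *Tpi1* was called in 1 of 23 alternatives. That call is a description only, since the mouse was left out for being lowest in these enzymes.

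Phosphoglycerate kinase makes ATP from 1,3-bisphosphoglycerate, phosphoglycerate mutase moves the remaining phosphate, and enolase removes water to give phosphoenolpyruvate. *Pgk1* (ENSMUSG00000062070; chromosome X, 105230706 to 105247305) was at 86.3 to 120.3 CPM in fl/fl mice (median 112) and at 86.6 to 106 CPM in iADKO mice (median 96.7). The lowest of all 13 mice was fl/fl mouse 5. The log2 fold change of -0.20 (standard error 0.074) lay just outside the threshold (edgeR adjusted p = 0.0509). It was -0.25 without fl/fl mouse 5 (edgeR adjusted p = 0.00236) and -0.23 without iADKO mouse 6 (edgeR adjusted p = 0.0304), both past the threshold, over a range of 0.00236 to 0.989 across the alternatives. Both calls are a description only, since fl/fl mouse 5 was the lowest and iADKO mouse 6 the highest of its group in *Pgk1*. *Pgam1* (ENSMUSG00000011752; chromosome 19, 41900341 to 41907104) was at 50.1 to 72.2 CPM in fl/fl mice (median 66.7) and at 49.2 to 57.4 CPM in iADKO mice (median 54.6). Every fl/fl mouse but number 5 was above every iADKO mouse. Its log2 fold change was -0.29 (standard error 0.077, edgeR adjusted p = 0.0133). *Eno1* (ENSMUSG00000063524; chromosome 4, 150321073 to 150337027) was at 277 to 546 CPM in fl/fl mice (median 459.6) and at 268 to 341 CPM in iADKO mice (median 302). Within the iADKO range lay fl/fl mouse 5 again, and the others started at 439 CPM. The log2 fold change was -0.55 (standard error 0.12, edgeR adjusted p = 0.0052).

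Pyruvate kinase transfers the last phosphate to ADP, and lactate dehydrogenase reduces pyruvate to lactate and so regenerates NAD+. *Pkm* (ENSMUSG00000032294; chromosome 9, 59563364 to 59586663) had 348 to 592 CPM in fl/fl mice (median 528) and 374 to 423 CPM in iADKO mice (median 393). Of the fl/fl mice, number 5 lay below all 6 iADKO mice, and the other 6 fl/fl mice lay above them. The log2 fold change was -0.37 (standard error 0.10, edgeR adjusted p = 0.0143), and whole-gene counts do not separate the M1 and M2 splice forms. *Ldha* (ENSMUSG00000063229; chromosome 7, 46490899 to 46505061) had 569.6 to 1113 CPM in fl/fl mice (median 938) and 482 to 640.5 CPM in iADKO mice (median 564). Fl/fl mouse 5 was within the iADKO range, and the next lowest fl/fl mouse was at 885 CPM. Mean *Ldha* of 918 ± 173 CPM in 7 fl/fl mice and 564 ± 54.5 CPM in 6 iADKO mice (±SD) gave a log2 fold change of -0.70 (standard error 0.13) with the lowest adjusted p of the 10 enzymes (edgeR adjusted p = 0.00159).

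The fits by scaling and by library number differed gene by gene. With library totals, the median over all genes shifted from 0.03 to 0.24, and the split of calls moved from 2367 higher and 2737 lower to 7397 higher (44.2%) and 1276 lower (7.62%). *Hk2*, *Pfkl*, *Aldoa*, *Eno1* and *Ldha* remained lower, *Pgam1* and *Pkm* no longer passed, *Pgk1* had a log2 fold change of 0.00, turning from negative to positive, and *Pfkp* was called higher. Relative to the shifted median, the log2 fold changes ran from -0.85 for *Aldoa* to 0.10 for *Pfkp*, with *Pgk1* at -0.23. Of the 5 ranges of library numbers, only 2 hold both genotypes. Among libraries 747 to 750 (3 fl/fl and 1 iADKO), 9 of the 10 enzymes were lower in the 1 iADKO library than in the fl/fl mean. The median log2 difference was -0.63, against 0.03 over all genes tested. Among libraries 722 to 727 (2 of each genotype, fl/fl mouse 5 and iADKO mouse 6 included), 7 had a lower mean in iADKO. The median there was -0.07, against 0.01 over all genes tested. The shares of all genes lower within these ranges were not computed. With range as a block, the log2 fold changes of the 7 enzymes otherwise called ran from -0.64 for *Aldoa* to -0.18 for *Pgam1*. When library 765 was counted with 747 to 750, a choice made after seeing the data, *Hk2*, *Pfkl*, *Aldoa* and *Ldha* were called lower, against 7.17% of genes, and *Pgam1*, *Eno1* and *Pkm* were not. The labels do not say what the numbers stand for, and range and genotype cannot be told apart in the other libraries.

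Levels between genes were compared as CPM per kb of the canonical transcript. In fl/fl mice *Aldoa* was highest at 1074 ± 291 CPM per kb (SD, n = 7), followed by *Ldha* at 578 ± 109. *Pkm*, *Eno1* and *Tpi1* followed at 209 ± 33.3, 195 ± 37.2 and 190.0 ± 45.8 CPM per kb, which did not differ beyond their spread. *Pgk1* was at 60.5 ± 6.51 CPM per kb. *Pfkl* and *Pgam1*, at 37.6 ± 6.88 and 36.3 ± 4.24, were likewise within 1 SD of each other, and *Hk2* and *Pfkp* were lowest at 25.0 ± 7.33 and 19.8 ± 2.15 CPM per kb. In iADKO mice (n = 6) *Aldoa* was at 603 ± 65.2 and *Ldha* at 355 ± 34.3 CPM per kb. At the low end the order was different, with *Pfkp* at 21.8 ± 2.16 and *Hk2* at 14.9 ± 2.48 CPM per kb, and this change of order was not tested. Copies elsewhere match *Pgk1* over 1255 bp and *Pgam1* over 765 bp at 100% identity, and *Eno1* over 1736 bp at 99.48%. Reads discarded as matching several places could not be counted, so the levels of these genes may be too low and their place in the order is uncertain.

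Isozyme composition was then asked of each mouse, as the share of an enzyme's summed counts per kb that came from the named gene. These shares do not depend on library scaling. *Hk2* supplied between 36.5% and 63.6% of *Hk1*, *Hk2* and *Hk3* in fl/fl mice (median 52.6%) and between 27.0% and 35.8% in iADKO mice (median 29.9%). The groups did not overlap, with fl/fl mouse 5 lowest and iADKO mouse 6 highest of their groups. The means were 51.8% ± 9.39 (SD, n = 7) and 30.7% ± 3.78 (SD, n = 6; exact two-sided permutation test, p = 0.00117, adjusted over 7 shares 0.00272). *Pfkp* supplied 25.66% to 32.01% of the phosphofructokinase subunits in fl/fl mice (median 29.1%) and 32.6% to 42.1% in iADKO mice (median 39.4%). All 6 iADKO mice were above all 7 fl/fl mice, with iADKO mouse 6 nearest to them. The difference was 9.94 percentage points (exact two-sided permutation test, p = 0.000583, the smallest that 7 against 6 mice allow, adjusted 0.00272), and *Pfkl* differed by -8.22 points (exact permutation test, p = 0.00466, adjusted 0.00816). *Ldha* supplied 90.8% to 93.4% of *Ldha* and *Ldhb* in fl/fl and 86.6% to 90.7% in iADKO mice, with medians of 93.0% and 89.1%. These groups did not overlap either (difference -4.06 points, exact two-sided permutation test, p = 0.00117, adjusted 0.00272). With same-numbered mice as a block, the *Hk2*, *Pfkp*, *Pfkl* and *Ldha* shares no longer passed. The smallest p of that sign-flip test over 6 numbers is 0.0312 before adjustment.

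*Aldoa* supplied over 99.8% of *Aldoa* and *Aldoc* in every mouse (99.94% ± 0.0487, n = 7, and 99.87% ± 0.0287, n = 6; exact permutation test, p = 0.0163, adjusted 0.0228). Leaving out iADKO mouse 1 took that adjusted p to 0.0513, over a range of 0.00253 to 0.0875 across the alternatives. The *Eno1* share was 93.5% ± 3.56 and 90.8% ± 1.85 (n = 7 and 6, exact permutation test, p = 0.128, adjusted 0.15), and without fl/fl mouse 5, whose 85.5% was the lowest of all, the difference was -3.98 points and passed (exact permutation test, adjusted p = 0.00253, over a range of 0.00253 to 0.265 across the alternatives). That call is a description only, since the mouse left out was the lowest in this share. The *Pgam1* share was 95.4% ± 4.73 and 97.0% ± 3.74 (n = 7 and 6, exact permutation test, p = 0.523, adjusted 0.523). Fl/fl mice 1 and 5 and iADKO mice 3 and 5 had the highest sums of skeletal muscle markers, given below. In that order *Eno3* was at 20.9, 22.8, 14.3 and 18.6 CPM, against at most 12.5 in the other mice. *Pgam2* was at 3.91, 3.44, 2.07 and 2.25 CPM, against at most 1.05. The part of muscle RNA in the *Eno1* and *Pgam1* shares was not tested. Within libraries 722 to 727 the shares differed by -9.22 points for *Hk2*, 4.87 for *Pfkp*, -0.999 for *Pfkl* and -3.86 for *Ldha*, and within 747 to 750 by -25.7, 14.5, -11.0 and -2.45. The sign differed between the ranges for 2 shares, at 3.16 points in 722 to 727 and -4.90 in 747 to 750 for *Eno1*, and at 0.00269 and -0.0800 points for *Aldoa*.

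**Figure D2:**
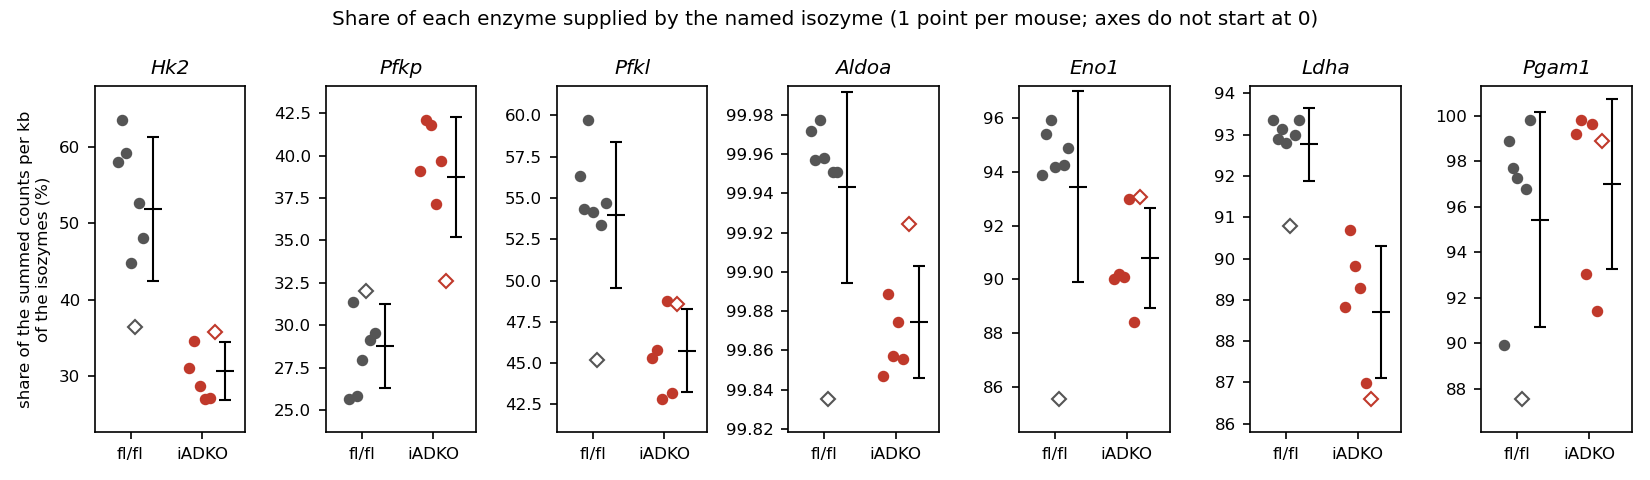
Share (%) of an enzyme's summed counts per kb that came from the named isozyme, with 1 point per mouse, gray for fl/fl (n = 7), red for iADKO (n = 6), and bars for mean ± SD. Open diamonds are fl/fl mouse 5 and iADKO mouse 6. For *Hk2*, *Pfkp* and *Ldha* the groups do not overlap. Axes do not start at 0.

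The other isozymes and the 2 steps missing from the 10 enzymes were taken from a list of 17 further glycolytic genes. Of these, 7 were too low to be tested, 3 were called lower, 2 were called higher and 5 were not called, with a median log2 fold change of -0.08, where 16.3% of all tested genes were lower and 14.1% higher. All 5 calls were lost with number range as a block, with log2 fold changes of 0.19 for *Hk1*, 0.94 for *Hk3*, -0.18 for *Gpi1*, -0.58 for *Pfkm* and -0.40 for *Gapdh*. With 4 ranges only those of *Hk3* and *Pfkm* held. *Gapdh*, which oxidizes glyceraldehyde 3-phosphate and stands between *Tpi1* and *Pgk1*, was at 544 to 1072 CPM in fl/fl mice and 511 to 726 CPM in iADKO mice. Only fl/fl mouse 5 among the fl/fl mice lay within the iADKO range, and the log2 fold change was -0.52 (edgeR adjusted p = 0.0107). *Gpi1*, the isomerase that follows hexokinase, differed by -0.21 (edgeR adjusted p = 0.0386), and *Pfkm* by -0.43 (edgeR adjusted p = 0.00657). The *Gpi1* call was lost in 12 of 23 alternatives, among them library totals, the replicate block and leaving out any of 8 single mice, with edgeR adjusted p from 0.00757 to 0.95. *Pfkm* lost its call in 2, library totals and the block by number range, with adjusted p from 4.48e-04 to 0.0745. The hexokinases went both ways. *Hk1*, the broadly expressed form, rose from 61.7 ± 5.75 to 72.6 ± 2.85 CPM (log2 fold change 0.24, edgeR adjusted p = 0.0108), and *Hk3*, found mainly in myeloid cells, rose from 26.3 ± 9.08 to 53.4 ± 9.99 CPM (log2 fold change 1.02, edgeR adjusted p = 0.00304, n = 7 and 6). *Aldoc* (0.56), *Eno2* (0.46), *Eno3* (-0.24), *Ldhb* (0.04) and *Pgam2* (-0.86) did not pass the threshold, the values being log2 fold changes.

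**Figure D3:**
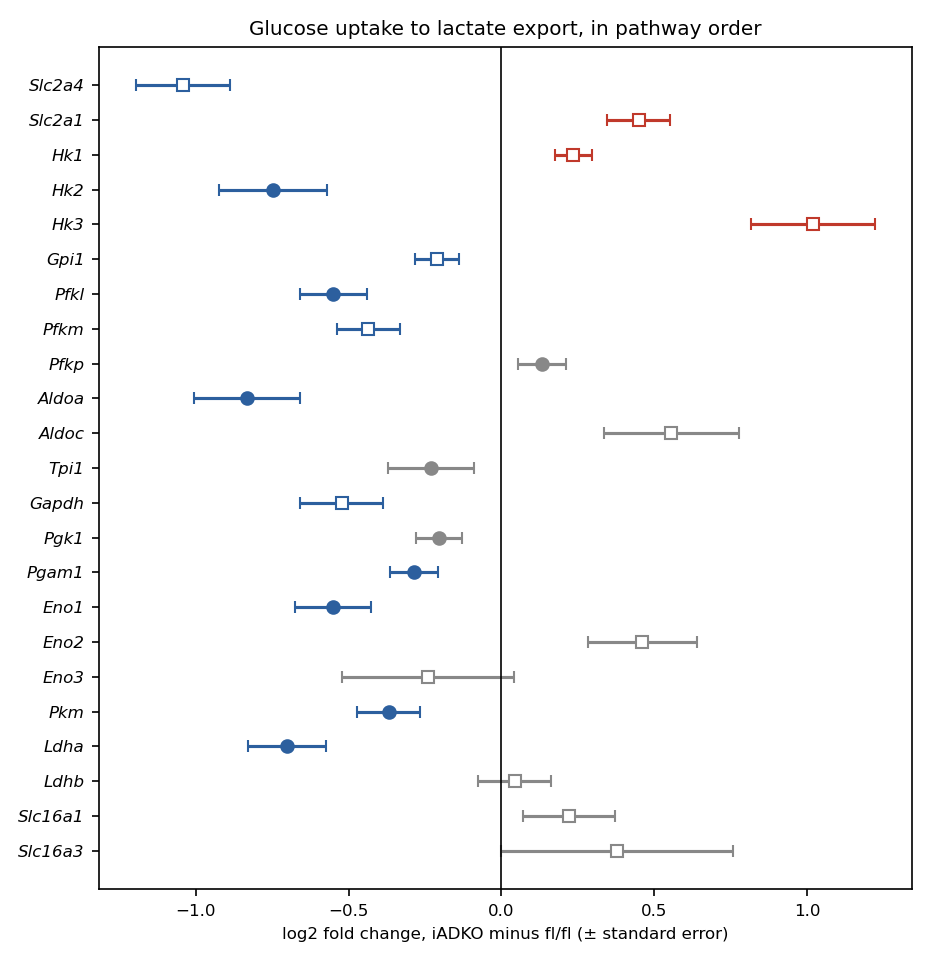
Log2 fold change (iADKO minus fl/fl) with its standard error from edgeR, in pathway order from glucose uptake to lactate export. Filled circles are the 10 enzymes and open squares other genes of the pathway, blue for lower, red for higher and gray for not past an adjusted p of 0.05. Of the 10 enzymes 9 lie left of 0 (with library totals *Pgk1* is at 0.00), and *Slc2a1*, *Hk1* and *Hk3* lie right of it in red.

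Glucose must enter before *Hk2* acts, and lactate made by *Ldha* must leave. Of 7 transport genes, 2 were lower, 1 was higher and 4 were not called, with a median log2 fold change of -0.10, beside the same 16.3% and 14.1% of all genes. With number range as a block these 3 calls were lost, at log2 fold changes of -0.86 for *Slc2a4*, 0.46 for *Slc2a1* and -0.14 for *Bsg*. With 4 ranges *Slc2a4* and *Slc2a1* kept their calls. *Slc2a4*, which encodes GLUT4, was at 197 to 411 CPM in fl/fl mice (median 317) and 147 to 217 CPM in iADKO mice (median 150.3). Fl/fl mouse 5 and iADKO mouse 6 were the mice nearest to the other group, and the log2 fold change was -1.04 (edgeR adjusted p = 5.56e-04). *Slc2a1*, encoding the basal transporter GLUT1, was higher by 0.45 (edgeR adjusted p = 0.00548), at 4.37 ± 0.768 CPM per kb in fl/fl and 5.97 ± 0.499 CPM per kb in iADKO, against 128 ± 28.4 and 62.1 ± 10.4 for *Slc2a4*. *Bsg*, a partner of the lactate transporters, differed by -0.18 (edgeR adjusted p = 0.0396), a call lost in 14 of 23 alternatives, with adjusted p from 0.00801 to 0.715. They include library totals (0.02), no filter on low counts, all 3 blocks and leaving out any of 9 single mice. The lactate transporters *Slc16a1*, *Slc16a3* and *Slc16a7* and the glucose transporter *Slc2a3* were not called.

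Of 12 regulators of glycolytic flux or transcription, 4 were lower, 1 was higher and 7 were not called, with a median log2 fold change of -0.15, beside the same 16.3% and 14.1% of all genes. With number range as a block *Myc* kept its call (edgeR adjusted p = 0.0214, the highest of its alternatives, over a range from 1.20e-06), while *Pfkfb1*, *Pfkfb3*, *Epas1* and *Mlxipl* did not, at log2 fold changes of -0.95, -0.65, -0.41 and -0.90. With 4 ranges all 5 kept their calls. *Pfkfb1* and *Pfkfb3* encode bifunctional enzymes that make and break down fructose 2,6-bisphosphate, the activator of the phosphofructokinases. *Pfkfb3* was at 533 to 828 CPM in fl/fl mice (median 720.1) and 362 to 527 CPM in iADKO mice (median 412), without overlap (log2 fold change -0.72, edgeR adjusted p = 8.70e-04). *Pfkfb1* also did not overlap, at 72.6 ± 9.78 and 36.3 ± 8.03 CPM (edgeR adjusted p = 2.81e-04). Among transcription factors with glycolytic targets, *Mlxipl*, encoding ChREBP, had a log2 fold change of -0.98 (edgeR adjusted p = 2.73e-04), *Epas1*, encoding HIF-2α, one of -0.47 (edgeR adjusted p = 0.00345) and *Myc* one of 0.54 (edgeR adjusted p = 7.52e-04). *Hif1a* was at 101 ± 7.58 CPM in fl/fl and 99.5 ± 7.69 CPM in iADKO mice, and its log2 fold change was -0.02 (edgeR adjusted p = 0.831). *Pfkfb2*, *Pfkfb4*, *Tigar*, *Bpgm*, *Fbp1* and *Fbp2* were not called. Several of the 10 enzymes are known HIF-responsive genes, as are 14 others listed beside them, of which *Vegfa* (-0.86), *Bnip3* (-0.78) and *Pdk1* (-1.04) were lower, *Kdm3a* (0.32) was higher and 10 were not called. The median log2 fold change of these 14 was -0.02, against -0.46 for the 10 enzymes, and 3 of 14 lower stands beside 16.3% of all genes. These 4 calls were lost with number range as a block, at log2 fold changes of -0.79 for *Vegfa*, -0.84 for *Bnip3*, -0.97 for *Pdk1* and 0.26 for *Kdm3a*. With 4 ranges *Vegfa*, *Bnip3* and *Pdk1* kept their calls and *Kdm3a* did not.

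Markers of cell types also differed in the fit without blocks. With number range as a block, 14 of all tested genes were called lower and 40 higher, and marker calls from that fit are not given here. All 7 adipocyte markers were lower in iADKO, where 16.3% of all tested genes were, with a median log2 fold change of -0.88, and the most abundant was *Fabp4*. Summed, they were at 20250, 14613, 18781, 15698, 10846, 15693 and 16622 CPM in fl/fl mice 1 through 7 and at 8705, 7122, 9348, 8885, 8321 and 12562 CPM in iADKO mice 1 through 6. Within libraries 722 to 727 the log2 differences of the adipocyte markers ran from -0.58 (*Lep*) to -0.05 (*Fabp4*). Within 747 to 750 they ran from -1.73 (*Cidec*) to -1.03 (*Plin1*). Of 10 macrophage markers, 8 were higher, where 14.1% of all tested genes were, with a median of 0.70. The other 2, *Cd163* and the most abundant, *Lyz2*, were not called. Their sums in the same order were 2494, 2902, 2348, 2776, 5950.2, 2490 and 4086 CPM in fl/fl and 5216, 5415, 5236, 6222, 5225 and 3599 CPM in iADKO. Fl/fl mouse 5, lowest in all 10 enzymes, was the highest fl/fl mouse in this sum and the lowest in the adipocyte sum. Of 13 skeletal muscle markers, 1 was lower and 12 were not called, and their summed CPM was 524, 63.1, 126, 140, 619, 104 and 56.7 in fl/fl and 52.2, 34.9, 265, 34.0, 332 and 54.5 in iADKO, led by *Acta1*. No marker of these lists was at 0 in every library. Without fl/fl mice 1 and 5, whose muscle sums were over 5 times the median, 8 of the 10 enzymes were lower, against 17% of genes. That count is a description only, since it leaves out fl/fl mouse 5, the lowest fl/fl mouse in all 10 enzymes. No iADKO mouse passed this cutoff, and iADKO mice 3 and 5, at 265 and 332 CPM, were kept. The part of adipocyte and macrophage content in the enzyme results was not tested.

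Since most of the 10 enzymes were lower together, their promoters were searched for 2 short motifs. ACGTG is a form of the core of sequences known to bind HIF proteins, and other forms of that core were not searched. CACGTG, which holds ACGTG on both strands, is the E-box known to bind Myc-family proteins and, in pairs, ChREBP. Sequences were those of RefSeq on GRCm38.p6, in which all 10 genes matched. In the 250 bases upstream of a start, on either strand, 6 of the 10 had ACGTG at 1 or more of their starts (*Hk2*, *Aldoa*, *Pgk1*, *Pgam1*, *Pkm* and *Ldha*), against 18.5% of 27025 genes, and 1 (*Ldha*) had CACGTG, against 6.86% of those genes. Over all 32851 starts, 16.6% had ACGTG and 6.02% had CACGTG. Of the 4 genes without ACGTG, *Pfkl* and *Eno1* were called lower and *Pfkp* and *Tpi1* were not. A match is a description of letters and not evidence of binding. The 150 bases just upstream of the start are shown for 4 of the genes, chosen after the search from the 6 with matches, with ACGTG on either strand in capitals. They are *Ldha* (plus strand, chr7:46845654-46845803), *Hk2* (minus strand, chr6:82774455-82774604), *Pgk1* (plus strand, chrX:106186950-106187099) and *Pgam1* (plus strand, chr19:41911721-41911870).
Ldha: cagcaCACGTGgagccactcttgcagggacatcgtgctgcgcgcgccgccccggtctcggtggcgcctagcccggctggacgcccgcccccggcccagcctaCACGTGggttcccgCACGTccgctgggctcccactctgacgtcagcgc
Hk2: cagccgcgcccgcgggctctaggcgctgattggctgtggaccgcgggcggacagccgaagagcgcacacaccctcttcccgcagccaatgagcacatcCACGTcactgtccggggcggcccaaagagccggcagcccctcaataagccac
Pgk1: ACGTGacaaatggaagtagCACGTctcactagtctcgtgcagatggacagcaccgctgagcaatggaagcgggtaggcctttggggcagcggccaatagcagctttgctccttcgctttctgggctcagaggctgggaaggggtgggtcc
Pgam1: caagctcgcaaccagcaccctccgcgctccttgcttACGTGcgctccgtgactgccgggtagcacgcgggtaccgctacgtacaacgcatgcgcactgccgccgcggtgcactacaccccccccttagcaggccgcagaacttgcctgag
*Ldha* had the most matches, 5 when each CACGTG counts on both strands, and the lowest adjusted p of the 10 enzymes in the fit without blocks. With number range as a block *Hk2* had the lowest (edgeR adjusted p = 0.0823, against 0.130 for *Ldha*). *Pgk1*, with 2 matches in the same window, was not called. A link between matches and calls was not tested.

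Reads of some enzymes could be shared with other genes. Annotated exons of *Pfkp* overlap those of *Pitrm1* on the opposite strand by 1831 bp, and those of *Pfkl* overlap *Cfap410* by 5126 bp. The libraries were strand specific, but the strand setting used in counting is not given in the sources used here, so without strand these pairs could not be told apart. *Pitrm1* was lower in iADKO (log2 fold change -0.30, edgeR adjusted p = 0.0023) while the estimate for *Pfkp* was positive, and *Cfap410*, with 5331 counts over 13 mice against 32768 for *Pfkl*, was also lower (-0.25, edgeR adjusted p = 0.0256). *Aldoa* shares 84 bp with *Tlcd3b* on the opposite strand, which was also lower (-1.31, edgeR adjusted p = 0.00844), and 2320 bp with *Gm57854* on the same strand, which had 228 counts. *Tpi1* shares 38 bp with *Spsb2* and 668 bp with *Gm67878*, both on the opposite strand, and the latter was not analysed here. *Gm49759* lies over *Pkm* on the same strand with 3464 counts against 114405. Leaving out genes whose exons overlap an enzyme's, processed pseudogenes and other copies with at least 95% identity over 200 bp held at most 0.833% of the combined counts where they had counts to compare, which was for *Pgam1*. Of 5 such copies of *Eno1*, 3 had counts and the others were not analysed here, and reads discarded as matching several places could not be counted.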

How the data were processed

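Whole pmWAT from 7 fl/fl and 6 iADKO mice was sequenced as strand-specific mRNA. The authors deposited raw counts per gene and the log2 values (rlog) that DESeq2 makes from them. The submitters' notes name FastQC 0.12.1, STAR 2.7.11a and mm39. The counting tool and annotation are not given in the sources used here. Identifiers were named with GENCODE vM39 (33184 of 33618). Counts were filtered with filterByExpr, normalized by TMM and compared by edgeR's robust quasi-likelihood test (edgeR 4.0.16, R 4.3.3), with Benjamini-Hochberg adjustment over 16753 genes, after tests on simulated data. Log2 CPM used a prior count of 2. Isozyme shares were compared by exact permutation over 1716 splits. Copies were found with blastn 2.17.0. Alternatives used DESeq2 1.42.0, limma 3.58.1, other scalings and filters, blocks, and left-out mice. The rule for named genes took the 10 enzymes, their isozymes, and the genes of the other lists past the threshold. Other genes of the lists that are named, such as *Hif1a* and the most abundant markers, were added after their values were seen. The members and lists were chosen with earlier results of these data known. No pair of libraries agreed within sampling noise (chi-square per degree of freedom 8.16 to 88.8 over 36 pairs within a genotype). Errors are spreads between mice.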

Additional observations from a re-analysis of the deposited data

Results flagged for a closer look

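Values were looked at again where 1 mouse lay far from the rest of its group, by the gap to its nearest neighbor over the group's range (Dixon's criterion), which chance flags in about 1 of 20 groups. Of 68 groups examined 13 stood out. In fl/fl mice, mouse 5 was lowest in *Eno1* (277 CPM), *Pkm* (348 CPM), *Ldha* (569.6 CPM) and *Pdk1* (99.1 CPM), and in the isozyme shares of *Aldoa* (99.84%), *Eno1* (85.5%) and *Ldha* (90.8%), so 6 of these 7 concern the 10 enzymes. Fl/fl mouse 2 was highest in *Pfkp* (105 CPM). In iADKO mice, mouse 6 was lowest in *Hk3* (33.4 CPM) and highest in *Slc2a4* (217 CPM), *Pfkfb1* (51.7 CPM), *Vegfa* (241 CPM) and *Pdk1* (97.9 CPM). The groups share mice, so these values are not independent of each other. What sets fl/fl mouse 5, fl/fl mouse 2 and iADKO mouse 6 apart was not tested.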

How the results depend on the processing

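Across 23 alternatives the median log2 fold change of the 10 enzymes stayed negative. It was -0.25 with library totals only, where 8673 genes were called (5104 otherwise), 1 enzyme was called higher (*Pfkp*), *Pgk1* turned to 0.00108 and *Bsg* to 0.0245. With library number range as a block, 54 genes and 0 enzymes were called, and with 4 ranges, chosen after seeing the data, 1986 genes and 4 enzymes. In the block with 5 ranges, the 5 libraries of ranges that hold 1 genotype add nothing to the log2 fold changes. Ranges of that kind with 2 libraries still add to the estimate of spread between mice. DESeq2's size factors, the DESeq2 Wald test and limma on rlog values each called 8 enzymes lower, *Pgk1* being added, and the filter alternatives called 7. With a replicate block, 4833 genes and 7 enzymes were called, all lower. Same-numbered mice had residual correlations of -0.0265 to 0.217, above 0.1 in 3 of 6 pairs, and 3 of 6 fl/fl mice correlated best with their own number, so the numbers were not taken to pair the mice. Under that block the isozyme shares differed by -21.7 (*Hk2*), 10.1 (*Pfkp*), -8.09 (*Pfkl*), -0.0673 (*Aldoa*) and -3.96 (*Ldha*) points and no longer passed, where the smallest p of sign flips over 6 numbers is 0.0312 before adjustment. Without the 2 libraries high in muscle markers, the *Eno1* share differed by -4.16 points and passed, and *Pgam1*'s by -1.10, with its sign turned. Fl/fl mouse 5, among the libraries left out there, was the lowest fl/fl mouse in both shares, so these values are a description only. With each mouse left out in turn, the counts of genes ran from 3998 to 6604, of enzymes lower from 7 to 9 and higher from 0 to 1 (*Pfkp*, without fl/fl mouse 2), and the median from -0.53 to -0.41. Raw counts in place of counts per kb, and lengths from all annotated exons (an alternative chosen after seeing the annotation), changed no call of a share. With each mouse left out, differences in shares ran from -23.7 to -19.2 for *Hk2*, 9.27 to 11.2 for *Pfkp*, -9.68 to -7.26 for *Pfkl*, -0.0865 to -0.0628 for *Aldoa*, -3.98 to -2.19 for *Eno1*, -4.46 to -3.64 for *Ldha* and 0.261 to 2.69 for *Pgam1*. The causes of these changes were not tested.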

Other observations

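Other cell types were followed through short marker lists, with sums given as CPM, and over all tested genes 16.3% were lower and 14.1% higher. Of 3 brown adipocyte markers 2 were lower in iADKO, and the sums were 61.0 ± 31.3 (SD, n = 7) and 23.9 ± 12.0 (SD, n = 6). Of 4 endothelial markers 2 were lower (*Cdh5* and *Kdr*), with sums of 755 ± 74.7 and 664 ± 37.6. Higher in iADKO were 2 of 4 B cell, 1 of 4 T cell, 1 of 4 neutrophil and 2 of 4 epithelial markers. The epithelial sum was 135 in iADKO mouse 6, the mouse with the highest *Aldoa*, *Eno1*, *Pkm* and *Ldha* of its group, and 21.4 to 50.5 in the other iADKO mice. None of the 3 erythroid, 4 progenitor and 4 mesothelial markers was called.

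The enzyme order of change did not follow the order of the pathway. The lowest log2 fold changes were at aldolase (-0.83), hexokinase (-0.75) and lactate dehydrogenase (-0.70), while *Tpi1*, which follows aldolase directly, was at -0.23 and *Pgk1* at -0.20. Differences between enzymes in these values were not tested.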
